A study of Mus musculus with 68 samples.

Results

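The 10 genes described here are used as markers of macrophages and their near relatives in the early embryo: Csf1r, Cx3cr1, Ptprc, Fcer1g, Tyrobp, C1qa, C1qb, C1qc, Aif1 and Mrc1. They were chosen by name, as the rows of the deposited expression table whose gene identifiers carry these symbols, and all 10 were among its 21948 genes. Macrophages are the resident phagocytes of tissues. In the mouse embryo the earliest ones descend from progenitors of the yolk sac, travel with the blood or through tissue into the organs, and clear dying cells there. Their survival depends on CSF1R, a receptor tyrosine kinase, and they sense and engulf debris with receptors that signal through small adaptor proteins and with complement C1q, a bridging protein made of the products of C1qa, C1qb and C1qc.

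RNA was sequenced from pharyngeal arches, the paired swellings beside the embryonic throat. Arch 1 (PA1) forms the jaws, and arch 2 (PA2) lies behind it and expresses the transcription factor gene Hoxa2. Embryos of the strain cross CBA/Ca/J x C57BL/10 carried the label wildtype or Hoxa2-/- and were taken at embryonic day E9.0, E9.5, E10.0 or E10.5, and PA1 and PA2 came from the same embryo. Wildtype PA1 had 5, 5, 5 and 3 libraries at these stages, wildtype PA2 had 4, 4, 5 and 3, and each arch labelled Hoxa2-/- had 4, 5, 5 and 3. There were 35 embryos behind the 68 libraries, with both arches from 33, and the labels name neither the construct nor a cell type for the Hoxa2 allele. Values are in CPM, read counts scaled by a factor for each library, and in lists of values the libraries stand in the order of their replicate numbers. Arches were dissected whole, so fewer macrophages and less RNA per macrophage cannot be told apart.

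Library depth was 8912251 to 20619153 reads, at which 3 reads, the floor used for folds, were 0.140 to 0.328 CPM. Hoxa2 was not lower at any stage in the PA2 libraries labelled Hoxa2-/-: its group means in PA2 were 22.3 to 58.3 CPM in wildtype and 28.7 to 132 CPM under the label, against 0.107 to 0.519 CPM in wildtype PA1 and 0.115 to 0.378 CPM in PA1 under the label. The label is therefore used as a name only. Wildtype libraries of every stage but E10.0 also stood apart from all others, as Ski shows, a corepressor gene that has no part in the list: it read 26.3 to 108 CPM in those 24 libraries, 9.52 to 15.5 CPM in the 10 wildtype libraries of E10.0 and 9.28 to 22.8 CPM in the 34 labelled Hoxa2-/-. Outside E10.0 this division and the label cannot be told apart, and no change over stages is tested across it. Replicate 2 of wildtype PA2 at E9.0 held 75114 CPM of 13 red cell genes, against 4016 to 5852 CPM in the other 3 libraries of its group. Embryo 4 labelled Hoxa2-/- at E9.5 had the highest summed level of the 10 genes of its stage and label in both arches, 11.1 CPM in PA1 and 6.75 CPM in PA2.

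The transcription factor PU.1, the product of Spi1, is required for macrophages to form, and it binds a purine-rich box. Promoter windows are shown as a description only, and a part of PU.1 in the members' levels was not tested. RefSeq's table for GRCm38.p6, the build that corresponds to the mm10 named by the submitters' processing notes, held 8 start sites for 7 of the 10 genes. In the 250 bases before each start, GAGGAA, or TTCCTC when read on the other strand, was searched as a simple form of the box. It was found in 5 of the 8 windows, against 23.3% of the 32851 windows of all genes. A match describes the letters only and is no binding site. The windows of 4 members follow, 5′ to 3′ on the strand of the gene and ending at the base before the start, with matches in capitals. Fcer1g is shown as a window with no match, and Mrc1 as the one with the most.
C1qb (chr4:136886201-136886450, minus strand): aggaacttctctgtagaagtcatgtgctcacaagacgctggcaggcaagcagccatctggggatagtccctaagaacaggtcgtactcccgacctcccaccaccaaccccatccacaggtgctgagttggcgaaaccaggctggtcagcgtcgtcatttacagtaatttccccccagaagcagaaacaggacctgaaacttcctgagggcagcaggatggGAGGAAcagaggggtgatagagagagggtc
Ptprc (chr1:138175306-138175555, minus strand): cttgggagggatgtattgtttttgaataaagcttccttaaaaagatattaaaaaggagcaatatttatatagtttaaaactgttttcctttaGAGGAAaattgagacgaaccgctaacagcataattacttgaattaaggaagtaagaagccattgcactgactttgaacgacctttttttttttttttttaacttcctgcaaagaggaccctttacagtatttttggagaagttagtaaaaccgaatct
Mrc1 (chr2:14229164-14229413, plus strand): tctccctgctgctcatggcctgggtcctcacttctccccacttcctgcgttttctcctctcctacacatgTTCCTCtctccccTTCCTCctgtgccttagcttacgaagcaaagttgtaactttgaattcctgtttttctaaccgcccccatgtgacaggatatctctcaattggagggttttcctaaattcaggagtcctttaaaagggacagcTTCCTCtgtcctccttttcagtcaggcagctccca
Fcer1g (chr1:171234350-171234599, minus strand): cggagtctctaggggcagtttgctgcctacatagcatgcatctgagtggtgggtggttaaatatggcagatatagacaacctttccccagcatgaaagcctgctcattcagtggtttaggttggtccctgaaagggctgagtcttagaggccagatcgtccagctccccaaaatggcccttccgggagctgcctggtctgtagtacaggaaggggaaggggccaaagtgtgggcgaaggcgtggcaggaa
C1qb and Ptprc each held 1 match, beginning at positions -30 and -158 relative to the start, and Mrc1 held 3, at -180, -167 and -35, all on the other strand. Of the windows not printed, Aif1 held 1 match at -7 and C1qc 1 at -193, both on the other strand. Those of Cx3cr1 and the other start of Ptprc held none. Annotated exons covered 250 bases of the Cx3cr1 window, 162 of the window at the other Ptprc start and 151 of the C1qc window.

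All 10 genes were scarce in the youngest arches and more abundant in the oldest, with Mrc1 as a partial exception. The receptors come first. Csf1r, the receptor for CSF1 and IL-34, had the most reads of the list, 2231 over all libraries. In wildtype PA1 it read 0.209, 0.542, 0.666, 0.897 and 0.442 CPM at E9.0, then 0, 0.057, 0.0683, 1.12 and 0.688 (E9.5), 2.64, 2.59, 6.4, 2.46 and 4.32 (E10.0) and 8.39, 8.44 and 6.82 (E10.5). In wildtype PA2 it read 0.772, 1.12, 0.386 and 0.271 CPM at E9.0, then 0.187, 0.662, 0.152 and 1.14 (E9.5), 1.33, 0.87, 1.64, 1.74 and 1.02 (E10.0) and 4.81, 6.16 and 6.76 (E10.5). Every wildtype library of E10.5 was above every younger one, apart from replicate 3 of PA1 at E10.0, which reached into the range of PA2 at E10.5. The means of E10.5 were 14.3-fold those of E9.0 in PA1 and 9.27-fold in PA2. Tests used log2(CPM + 1), a scale that makes changes of scarce genes look smaller than they are, and on it the rise in PA1 was 2.53 ± 0.32 (SE), limma adjusted p = 2.8e-09. In PA2 it was 2.10 ± 0.33 (SE), limma adjusted p = 9.3e-07.

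Under the Hoxa2-/- label, Csf1r in PA1 read 0, 0, 0.0996 and 0 CPM at E9.0, then 0.462, 0.237, 2.89, 3.13 and 0.407 (E9.5), 3.91, 4.15, 3.06, 4.58 and 1.52 (E10.0) and 8.24, 4.77 and 3.17 (E10.5). In PA2 it read 0.256, 0, 0.0946 and 0.923 CPM at E9.0, then 0.138, 0.245, 0.29, 1.22 and 0.625 (E9.5), 1.16, 2.13, 3.7, 3.09 and 1.49 (E10.0) and 5.8, 2.72 and 2.03 (E10.5). The oldest and youngest groups did not overlap in either arch, and within PA1 at E9.5 embryos 3 and 4 stood well above the other 3. The rise from E9.0 to E10.5 was 2.57 ± 0.33 (SE), limma adjusted p = 1.9e-08, in PA1 and 1.74 ± 0.33 (SE), limma adjusted p = 4e-05, in PA2. Exons of Csf1r overlap those of Hmgxb3 on the opposite strand by 873 bases, and the SMART-seq and Nextera kits named in the protocols do not mark strand, so reads from there cannot be told apart. Hmgxb3 read 36.3 to 71.1 CPM over the group means. Between E9.0 and E10.5 it went from 60.9 to 41.7 CPM in wildtype PA1 and from 41.8 to 36.3 CPM in wildtype PA2. In PA1 labelled Hoxa2-/- it went from 71.1 to 48.3 CPM. In PA2 labelled Hoxa2-/- it went from 43.7 to 56.1 CPM. Its libraries there overlapped, at 24.6 to 57.9 CPM at E9.0 and 51.6 to 60.9 CPM at E10.5. The part of Hmgxb3 reads in the Csf1r values was not tested.

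Cx3cr1 encodes the fractalkine receptor, which marks yolk-sac-derived macrophages and microglia. At E9.0 it read 0 to 0.217 CPM in the 17 libraries of all groups, and 11 of the 68 libraries held no read of it. At E10.5 it read 2.29, 3.53 and 1.98 CPM in wildtype PA1, 1.81, 2.11 and 1.77 in wildtype PA2, 2.35, 2.16 and 0.726 in PA1 labelled Hoxa2-/- and 1.75, 2.0 and 0.631 in PA2 labelled Hoxa2-/-. No library of E10.5 was as low as any of E9.0. The log2 rises were 1.72 ± 0.25, 1.46 ± 0.26, 1.37 ± 0.26 and 1.22 ± 0.26 (SE) in that order, with limma adjusted p of 8e-08, 8.2e-06, 3.4e-05 and 0.00019.

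Ptprc encodes CD45, the membrane phosphatase of all white blood cells. In wildtype PA1 it went from 0.0522, 0.108, 0.308, 0.414 and 0.0982 CPM at E9.0 to 1.47, 1.9 and 1.67 at E10.5, and in wildtype PA2 from 0.0515, 0.267, 0.0552 and 0 to 1.34, 2.05 and 1.27 CPM. In PA1 labelled Hoxa2-/- it went from 0, 0, 0 and 0.126 to 0.903, 0.588 and 0.544 CPM. In PA2 labelled Hoxa2-/- none of the 4 libraries of E9.0 held a read, and those of E10.5 read 1.3, 0.88 and 0.911 CPM, a mean at least 3.87-fold that of E9.0 when E9.0 is set at a floor of 3 reads in each library. The groups did not overlap in any of the 4 comparisons. The log2 rises were 1.17 ± 0.20, 1.22 ± 0.21, 0.70 ± 0.21 and 1.01 ± 0.21 (SE), with limma adjusted p of 3.9e-06, 5.6e-06, 0.0087 and 0.00015. The third of these was lost without replicate 1 of PA1 labelled Hoxa2-/- at E10.5, at an adjusted p of 0.0614.

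The 2 adaptors carry ITAM motifs, short tyrosine stretches that recruit the kinase SYK. Fcer1g encodes the common gamma chain of Fc receptors and is also used by platelets and mast cells, and Tyrobp encodes DAP12, the partner of TREM2 and related receptors. Fcer1g was detected in more libraries than any other member, all but 1. It went from 0.104, 0.542, 0.564, 0.276 and 0.344 CPM at E9.0 to 3.32, 3.9 and 2.03 CPM at E10.5 in wildtype PA1, and from 0.154, 2.14, 0.0552 and 0.379 to 1.86, 3.42 and 1.72 CPM in wildtype PA2. The groups overlapped in PA2 only through replicate 2 of E9.0, the library rich in red cell transcripts. Under the label they went from 0.229, 0.331, 0.398 and 0.568 to 2.11, 2.02 and 0.454 CPM in PA1 and from 0.0852, 0.164, 0 and 0.554 to 1.37, 2.72 and 1.33 CPM in PA2, and they overlapped in PA1 through 1 low library of E10.5. The log2 rises were 1.56 ± 0.26, 1.10 ± 0.27, 0.80 ± 0.27 and 1.21 ± 0.27 (SE), with limma adjusted p of 1.4e-06, 0.00088, 0.019 and 0.00034. In PA1 labelled Hoxa2-/- the adjusted p was 0.147 without replicate 1 and 0.122 without replicate 2 of E10.5.

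Tyrobp had no read in any of the 4 libraries of PA1 labelled Hoxa2-/- at E9.0, and read 2.53, 1.31 and 0.998 CPM there at E10.5, a mean at least 7.03-fold that of E9.0 when E9.0 is set at a floor of 3 reads in each library. In wildtype PA1 it went from 0, 0.434, 0.103, 0.138 and 0.196 CPM to 2.78, 3.01 and 2.03 CPM, 15.0-fold between the means. In wildtype PA2 it went from 0.36, 1.98, 0.11 and 0 to 1.71, 3.06 and 1.39 CPM, where replicate 2 of E9.0 again reached the range of E10.5. In PA2 labelled Hoxa2-/- it went from 0.0852, 0, 0 and 0 to 2.29, 0.48 and 0.421 CPM, with no overlap. The log2 rises were 1.62 ± 0.25 in wildtype PA1, 1.03 ± 0.26 in wildtype PA2, 1.34 ± 0.26 in PA1 labelled Hoxa2-/- and 0.90 ± 0.26 (SE) in PA2 labelled Hoxa2-/-. Their limma adjusted p were 3e-07, 0.0012, 4.7e-05 and 0.0053, and the last was 0.185 without replicate 1 of E10.5 and 0.0625 with the compared groups alone in the fit. The second was lost with DESeq2 on recovered reads, at an adjusted p of 0.0908.

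The 3 complement genes stand in a row on chromosome 4 of GRCm38, all on the minus strand, with C1qb from 136880129 to 136886187, C1qc from 136889804 to 136893065 and C1qa from 136895917 to 136898803. C1qb was the highest of them per kilobase of exon and followed the mean of the members most closely. It went from 0.0522, 0.163, 0.461, 0 and 0.344 CPM at E9.0 and 0, 0, 0.41, 0.321 and 0.0529 (E9.5) to 1.36, 0.549, 3.44, 1.09 and 1.14 (E10.0) and 5.5, 4.06 and 3.28 (E10.5) in wildtype PA1. In wildtype PA2 the values were 0.206, 1.12, 0 and 0.0541 CPM (E9.0), then 0.0934, 0.165, 0 and 0.104 (E9.5), 1.39, 0.544, 2.84, 0.417 and 0.939 (E10.0) and 3.21, 4.74 and 3.22 (E10.5). At E9.0 and E10.5 it read 0, 0, 0 and 0.126 and then 4.39, 3.79 and 1.63 CPM in PA1 labelled Hoxa2-/-, and 0.0852, 0, 0 and 0 and then 2.67, 1.44 and 1.19 CPM in PA2 labelled Hoxa2-/-. The youngest and oldest groups did not overlap in any of the 4. Between the means of E9.0 and E10.5 lay 21.0-fold in wildtype PA1 and 10.8-fold in wildtype PA2. The log2 rise was 2.13 ± 0.28 (SE), limma adjusted p = 5.9e-09, in wildtype PA1 and 1.87 ± 0.29 (SE), limma adjusted p = 5.1e-07, in wildtype PA2. Under the label it was 1.99 ± 0.29 (SE), limma adjusted p = 2.3e-07, in PA1 and 1.40 ± 0.29 (SE), limma adjusted p = 0.00012, in PA2.

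C1qc in wildtype PA1 read 0, 0.108, 0.256, 0.069 and 0.245 CPM at E9.0 and 3.05, 2.53 and 3.02 CPM at E10.5, and in wildtype PA2 0.566, 1.44, 0.0552 and 0 CPM and then 2.28, 3.42 and 2.27 CPM. In PA1 labelled Hoxa2-/- it read 0, 0, 0 and 0.0631 CPM and then 3.97, 1.18 and 1.27 CPM. It had no read at E9.0 in PA2 labelled Hoxa2-/- and 2.29, 0.72 and 0.631 CPM at E10.5, a mean at least 4.57-fold that of E9.0 when E9.0 is set at a floor of 3 reads in each library. The groups were apart in each case, and the log2 rises were 1.77 ± 0.25, 1.35 ± 0.26, 1.52 ± 0.26 and 1.07 ± 0.26 (SE), with limma adjusted p of 3.4e-08, 2.7e-05, 5.2e-06 and 0.00089. C1qa was the lowest of the C1q genes per kilobase and had no read in 25 libraries, among them all 9 wildtype libraries of E9.5. Its highest value was 1.25 CPM, in wildtype PA1 at E10.5. Its log2 rises were 0.92 ± 0.16, 0.47 ± 0.17, 0.69 ± 0.17 and 0.46 ± 0.17 (SE), with limma adjusted p of 3.4e-06, 0.019, 0.00092 and 0.028. The call in wildtype PA2 was lost with edgeR on recovered reads at an adjusted p of 0.132, with DESeq2 at 0.247, with the compared groups alone in the fit at 0.176, and without replicate 4 or 5 of E9.0 or replicate 1 or 2 of E10.5 at 0.102, 0.083, 0.076 and 0.202. The call in PA2 labelled Hoxa2-/- was lost without replicate 1 or 2 of E10.5, at 0.144 and 0.107, with the compared groups alone at 0.0735 and with a pseudocount of 5 at 0.0635.

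Aif1, which encodes the actin-binding protein IBA1, stayed below 1 CPM in every library and so did not pass the filter for testing. It had over 3 reads in 14 libraries and none in 22, and its highest value was 0.843 CPM, in wildtype PA2 at E10.5. In wildtype PA1 it read 0 to 0.0522 CPM at E9.0 and 0.364 to 0.653 CPM at E10.5, and in wildtype PA2 0 to 0.0552 and 0.414 to 0.843 CPM. In PA2 labelled Hoxa2-/- its values of E9.0 and E10.5 overlapped. Mrc1 encodes the mannose receptor CD206, which some endothelial cells also carry. It was the member with the least regular course. In wildtype PA1 it went from 0.0522, 0.271, 0.308, 0.483 and 0.589 CPM at E9.0 to 1.2, 2.27 and 1.72 CPM at E10.5, a rise of 1.02 ± 0.24 (SE), limma adjusted p = 0.00054. In wildtype PA2 it went from 0.618, 0.16, 0.883 and 1.03 to 2.33, 2.05 and 1.27 CPM, a rise of 0.80 ± 0.26 (SE), limma adjusted p = 0.011, which was lost without replicate 2 of E9.0 or replicate 1 of E10.5 at adjusted p of 0.0601 and 0.0648. Neither wildtype arch overlapped between those stages.

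Under the label Mrc1 read 0.305, 0.463, 1.1 and 0.694 CPM in PA1 at E9.0 and 1.44, 0.588 and 1.54 CPM at E10.5, a difference of 0.41 ± 0.26 (SE), limma adjusted p = 0.23. In PA2 it read 1.36, 0.411, 0.473 and 2.68 CPM at E9.0 and 0.534, 0.8 and 0.351 CPM at E10.5, a difference of -0.41 ± 0.26 (SE), limma adjusted p = 0.23. Both pairs of groups overlapped, and the PA2 value had the opposite sign to those of the other members. Replicate 4 of PA2 labelled Hoxa2-/- at E9.0 held the highest Mrc1 value of all 68 libraries, 2.68 CPM. That library and replicate 1 of its group, at 1.36 CPM, also had the highest summed levels of the 13 endothelial genes in the series, 723 and 710 CPM, against 565 and 321 CPM in the other 2. The part of endothelial transcripts in these values was not tested.

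**Figure D1:**
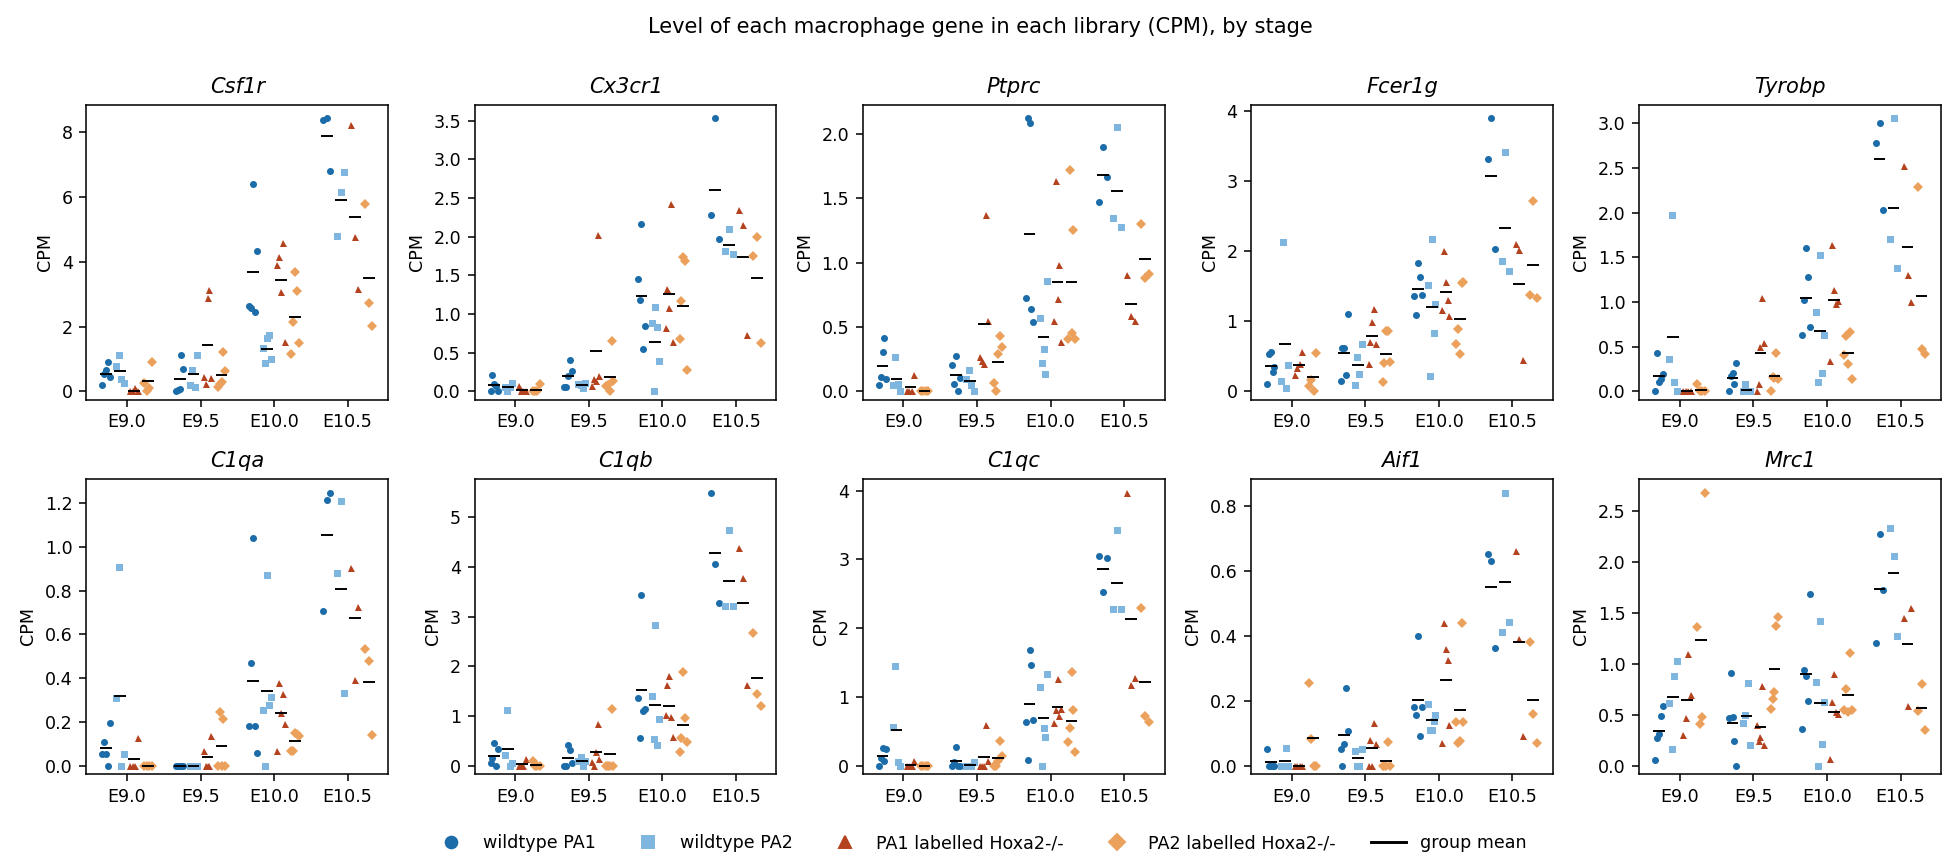
Level of each of the 10 genes in CPM (y axis) in each of the 68 libraries, by stage (x axis) and by arch and label (point shape and colour), with bars at the group means. The libraries of E10.5 stand highest for most genes, up to 8.44 CPM for Csf1r, while Mrc1 has its highest value, 2.68 CPM, in PA2 labelled Hoxa2-/- at E9.0.

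Counted over the list, 9 of the 10 members passed the filter of 1 CPM in at least 3 libraries. Since the values above 1 CPM lie mostly in the older arches, which were also the groups compared, the counts that follow describe the members and are no support for their direction. From E9.0 to E10.5, 9 of 9 rose in wildtype PA1, where 21% of the 18428 genes tested were called higher. In wildtype PA2 9 of 9 rose, against 17.5% of all genes called higher, while edgeR on the recovered reads called 8 of them and DESeq2 7, C1qa being lost with both and Tyrobp with DESeq2. In PA1 labelled Hoxa2-/- 8 of 9 rose, against 14.8%, and in PA2 labelled Hoxa2-/- 8 of 9, against 15.8%, with Mrc1 as the one not called in both. With no filter, which brought in Aif1, the counts were 10, 10, 9 and 8 of 10. All values of E10.5 lay above all values of E9.0 for 10, 7, 8 and 8 of the 10 members in the same order, against 21.8%, 17.6%, 17.1% and 13.2% of the 21948 deposited genes. Of the 34 calls, 6 were lost when 1 library was left out, those of Ptprc, Fcer1g, Tyrobp, C1qa and Mrc1 given above.

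**Figure D2:**
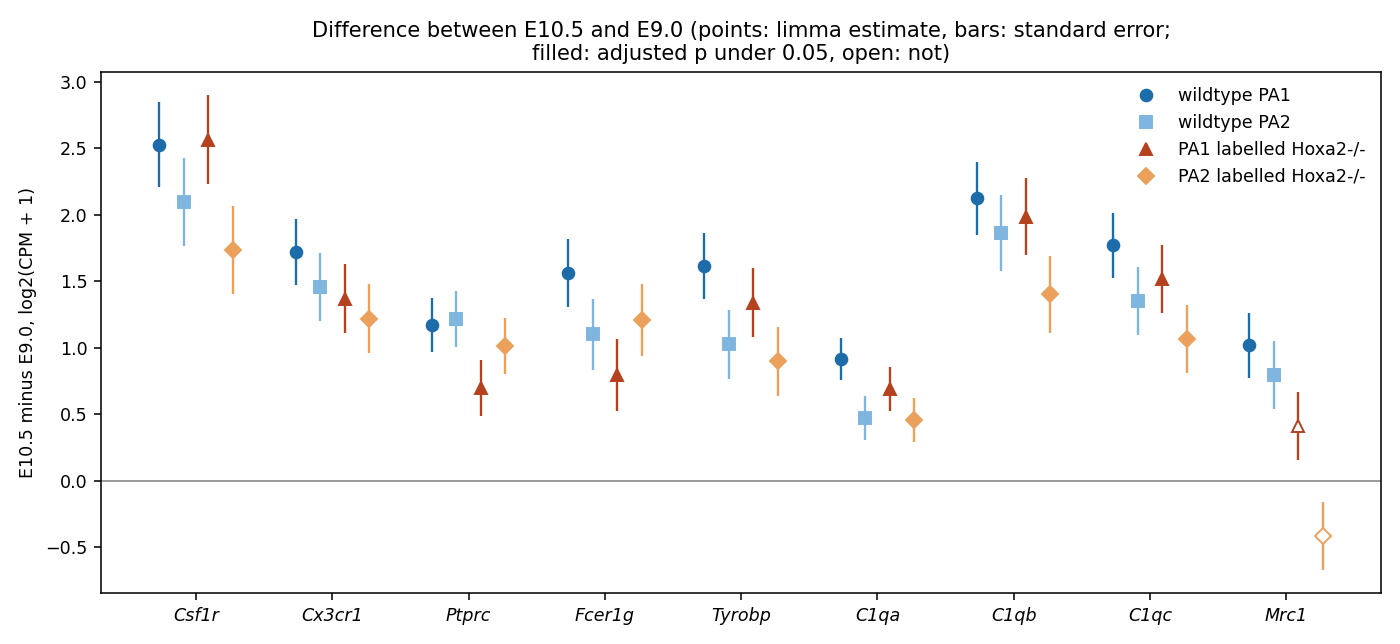
Difference between E10.5 and E9.0 on the log2(CPM + 1) scale (y axis) for the 9 members that passed the filter (x axis), in each arch and label, with standard errors as bars. Filled points had a limma adjusted p under 0.05, and all lie above 0, from 0.46 for C1qa in PA2 labelled Hoxa2-/- to 2.57 for Csf1r in PA1 labelled Hoxa2-/-, while the 2 open points are Mrc1.

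Most of the rise in wildtype came after E9.5. In wildtype arches no member was called between E9.0 and E9.5 by limma, against 6.73% of genes in PA1 and 6.68% in PA2, and 0 members in PA1 and 3 in PA2 had an unadjusted p under 0.05. With edgeR on the recovered reads 3 members fell in PA2 over this step, Tyrobp, C1qa and C1qc, and with DESeq2 none did. These 3 genes were at 1.98, 0.909 and 1.44 CPM in the library rich in red cell transcripts, replicate 2 of E9.0, and its part in those calls was not tested. From E9.5 to E10.5, 9 of 9 members rose in wildtype PA1, against 19.8% of genes called higher, and 9 of 9 in wildtype PA2, against 16.1%. The largest differences were those of Csf1r, 2.74 ± 0.32 in PA1 and 2.21 ± 0.33 (SE) in PA2, with limma adjusted p of 5.1e-10 and 5.1e-07. All 10 genes were higher in every library of E10.5 than in any of E9.5 in both wildtype arches, against 17.9% of genes in each, and leaving out any 1 library lost none of the 18 calls. Under the Hoxa2-/- label this held for 4 of the 10 in PA1 and 5 in PA2, against 8.32% and 8.89% of genes. The wildtype libraries of E10.0 lie on the other side of the division and were not tested against their neighbours in time. Their values for the 10 genes summed, 9.55 to 21.5 CPM in PA1 and 2.07 to 12.6 CPM in PA2, are given only as levels, beside 0.936 to 2.65 and 1.03 to 2.33 CPM at E9.5 and 24.1 to 31.5 and 20.5 to 29.1 CPM at E10.5.

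Under the Hoxa2-/- label all 4 stages lie on one side of the division and each step was tested. Csf1r rose in PA1 from E9.0 to E9.5 by 1.04 ± 0.29 (SE), limma adjusted p = 0.034, the only member called in that step, where 1.86% of genes were called higher. Without both arches of embryo 4 of E9.5 the value was 0.79 with an adjusted p of 0.19. From E9.5 to E10.0, Csf1r, C1qb and C1qc rose in PA1, by 1.03 ± 0.28, 0.80 ± 0.24 and 0.72 ± 0.21 (SE) with limma adjusted p of 0.019, 0.037 and 0.036, against 1.87% of genes called higher. In PA2 Csf1r rose by 1.12 ± 0.28 and Cx3cr1 by 0.80 ± 0.21 (SE), with limma adjusted p of 0.0086 and 0.019, against 1.74%. No member was called by limma from E9.0 to E9.5 in PA2, where 9.98% of genes were called higher and no member had an unadjusted p under 0.05. No member was called from E10.0 to E10.5 in PA1 or in PA2 either, where 0.195% and 0.0923% of genes were called higher and 4 and 1 members had an unadjusted p under 0.05. With edgeR the counts in these 3 were 1, 0 and 0, and with DESeq2 0, 0 and 0.

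These steps rested on few libraries by limma: 5 of the 6 calls were lost when 1 of several libraries was left out, and only that of Csf1r in PA2 was not. With the compared groups alone in the fit all 6 were lost, that one included, at adjusted p from 0.0508 to 0.247. With a pseudocount of 5 the calls of Csf1r from E9.0 to E9.5 and of C1qb and C1qc were lost, at 0.161, 0.113 and 0.119. For Csf1r in PA1 from E9.0 to E9.5 these were replicates 1 to 4 of E9.0 and 3 and 4 of E9.5, with adjusted p from 0.061 to 0.208. For Csf1r in PA1 from E9.5 to E10.0 they were replicates 1, 2 and 5 of E9.5 and 2 and 4 of E10.0, with adjusted p from 0.064 to 0.108, for C1qb replicates 1, 2, 3 and 5 of E9.5 and 2, 3 and 4 of E10.0, from 0.058 to 0.123, and for C1qc the same and replicate 5 of E10.0, from 0.0572 to 0.105. For Cx3cr1 in PA2 they were replicates 1, 2 and 3 of E9.5 and 2, 3 and 4 of E10.0, from 0.0543 to 0.0818. Without the 7 libraries that held over 40 CPM of yolk sac endoderm genes the calls of Csf1r in PA1 and in PA2 from E9.5 to E10.0 were lost at 0.0708 and 0.0814, that of C1qc at 0.0671 and that of Cx3cr1 at 0.141. On the recovered reads edgeR and DESeq2 each called Csf1r, Cx3cr1, Ptprc and Tyrobp from E9.0 to E9.5 in PA1. From E9.5 to E10.0 there, edgeR called none and DESeq2 called C1qc.

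Between the arches few members were called in the main fit, which did not pair the arches of an embryo. Over the 4 stages and both labels, limma called 2 differences, both in wildtype at E10.0, where 5.94% of genes were called. Csf1r read 2.64, 2.59, 6.4, 2.46 and 4.32 CPM in PA1 and 1.33, 0.87, 1.64, 1.74 and 1.02 CPM in PA2 there, without overlap, a difference of -0.96 ± 0.28 (SE), limma adjusted p = 0.022. Ptprc read 0.727, 2.12, 2.08, 0.638 and 0.541 CPM in PA1 and 0.57, 0.218, 0.328, 0.139 and 0.861 CPM in PA2, with overlap, a difference of -0.59 ± 0.18 (SE), limma adjusted p = 0.028. With the embryo as a replicate block the adjusted p were 0.0018 for Csf1r and 0.0071 for Ptprc, and Cx3cr1 was called too, at -0.45 and an adjusted p of 0.0271. With edgeR on the recovered reads neither was called, at adjusted p of 0.0986 for Csf1r and 0.124 for Ptprc, and with DESeq2 they were 0.121 and 0.116. Csf1r was also lost with a pseudocount of 0.25, at 0.0869, and Ptprc with the compared groups alone, at 0.166, and without the 7 libraries rich in yolk sac genes, at 0.055. Leaving out replicate 3 or 5 of PA1 or 2 or 5 of PA2 at E10.0 took Csf1r to adjusted p of 0.0565 to 0.109, and leaving out replicate 2 or 3 of PA1 or 2, 3 or 4 of PA2 took Ptprc to 0.0523 to 0.162.

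In the other 7 arch contrasts limma called none of the 9 members, against 18.7%, 26.3% and 1.52% of genes in wildtype at E9.0, at E9.5 and at E10.5, and 24.6%, 9.58%, 4.23% and 1.37% under the label from the youngest to the oldest stage. Members with an unadjusted p under 0.05 numbered 0, 0 and 0 in wildtype and 0, 1, 1 and 0 under the label, in the same order. edgeR called none in these, and DESeq2 called Csf1r alone, higher in PA2 labelled Hoxa2-/- at E9.0. Within embryos, PA2 tended to be the lower arch for some members and not for others. Of the 16 embryos of E10.0 and E10.5 with both arches, PA2 was lower than PA1 in 15 for Csf1r, 14 for Cx3cr1, 13 for Tyrobp and C1qb, 11 for C1qa and C1qc, 10 for Fcer1g, 9 for Aif1 and 8 for Ptprc and Mrc1. Embryo 2 of wildtype at E10.0 had all 10 genes lower in PA2, and its PA2 library held no read of Cx3cr1, C1qa, C1qc or Mrc1. That PA2 library was shallow, with 9052085 reads against 12910819 in the PA1 library, so 3 reads were 0.326 CPM in it. Limma called no member for a difference between the arches in the change over the whole span of stages, where 3.35% of genes were called in wildtype and 7.33% under the label. In wildtype the log2 differences were -0.59 to 0.05 with adjusted p of 0.349 and above, and under the label -0.83 to 0.41 with adjusted p of 0.153 and above. One member, Mrc1, had an unadjusted p under 0.05 there, under the label. edgeR called none, and DESeq2 called Csf1r under the label, with a smaller rise in PA2.

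**Figure D3:**
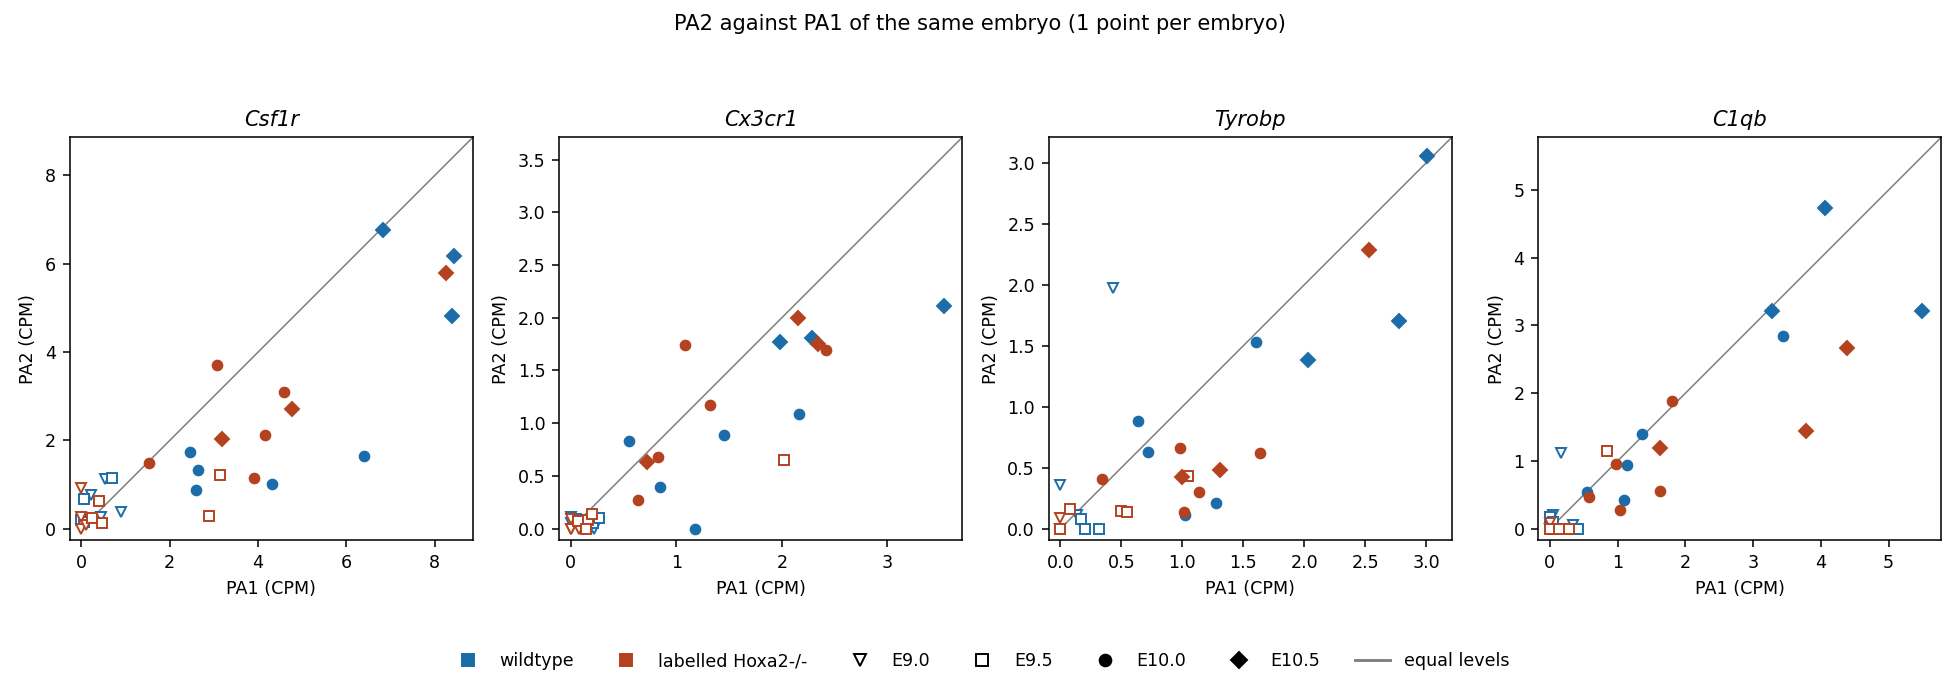
Level in PA2 (y axis) against PA1 (x axis) of the same embryo in CPM for Csf1r, Cx3cr1, Tyrobp and C1qb, with 1 point per embryo, colour for the label, shape for the stage and a line at equal levels. Filled points are embryos of E10.0 and E10.5, of which 15, 14, 13 and 13 of 16 lie below the line.

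Genotype labels could be compared without the library division at E10.0 only. No member differed there. In PA1 the log2 differences between the label Hoxa2-/- and wildtype were -0.31 to 0.02, with a lowest limma adjusted p of 1 and no member at an unadjusted p under 0.05, where 0% of the 18428 genes were called. In PA2 they were -0.25 to 0.47, with a lowest adjusted p of 0.658 and no member at an unadjusted p under 0.05, where 0.0814% of genes were called. edgeR and DESeq2 called no member in either arch. The standard errors of these differences were 0.14 to 0.28, so small differences were not detectable at this depth. Csf1r, for example, read 3.68 ± 1.7 CPM (SD, n = 5) in wildtype PA1 and 3.44 ± 1.21 CPM (SD, n = 5) in PA1 labelled Hoxa2-/-, and 1.32 ± 0.377 CPM (SD, n = 5) and 2.31 ± 1.07 CPM (SD, n = 5) in PA2.

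At the other 3 stages the label and the division of the libraries cannot be told apart. Limma called 1 difference there, Mrc1 in PA2 at E10.5, which read 2.33, 2.05 and 1.27 CPM in wildtype and 0.534, 0.8 and 0.351 CPM under the label, a difference of -0.88 ± 0.27 (SE), limma adjusted p = 0.028, where 10.3% of genes were called. It was lost with edgeR at an adjusted p of 0.0806 and with DESeq2 at 0.0776, with a pseudocount of 0.25 at 0.08, and without replicate 1 or 2 of wildtype or replicate 1 or 3 under the label, at 0.0715 to 0.13. At E10.5 all 9 tested members had negative values in both arches, -0.74 to -0.30 in PA1 and -0.88 to -0.25 in PA2. The medians over all genes tested were -0.0086 in PA1 and 9.5e-06 in PA2. In PA2 5 members had an unadjusted limma p under 0.05, Mrc1 among them. No member was called in PA1 at E10.5, where 3.05% of genes were called and 2 members had an unadjusted p under 0.05. None was called by limma in PA1 at E9.0 or E9.5 or in PA2 at E9.0 or E9.5, where 2.08%, 23.6%, 14% and 4.48% of genes were called and 0, 2, 3 and 0 members had an unadjusted p under 0.05. With edgeR the counts at E9.0 and E9.5 were 0 and 2 in PA1, with Csf1r and Ptprc higher under the label, and 3 and 0 in PA2, with Tyrobp, C1qa and C1qc lower. With DESeq2 they were 1 and 2 in PA1 and 4 and 0 in PA2. Replicate 2 of wildtype PA2 at E9.0, the library rich in red cell transcripts, had the highest Tyrobp, C1qa and C1qc of its group. These were 1.98, 0.909 and 1.44 CPM, and the part of that library in the PA2 calls of E9.0 was not tested. The difference of the genotype contrasts between PA2 and PA1 was called by limma, edgeR or DESeq2 for no member at any stage, against 0%, 0.0109%, 0.0163% and 0.038% of genes called by limma from E9.0 to E10.5, with 1 of the 36 values at an unadjusted p under 0.05.

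Levels were compared between genes per kilobase of exon. In wildtype PA1 at E10.5, C1qb, Tyrobp and Fcer1g were the highest, at 3.93 ± 1.04, 3.90 ± 0.765 and 3.53 ± 1.10 CPM per kilobase (SD, n = 3), and they did not differ beyond their spread. C1qc and Csf1r followed at 1.48 ± 0.151 and 1.36 ± 0.159 CPM per kilobase and C1qa at 1.02 ± 0.291. Cx3cr1, Aif1 and Mrc1 read 0.577 ± 0.183, 0.359 ± 0.105 and 0.271 ± 0.0839 CPM per kilobase. Ptprc, with the longest merged exons at 18313 bases, was the lowest at 0.0916 ± 0.0117. C1qb, Tyrobp and Fcer1g held the first 3 places in all 4 groups of E10.5, and Ptprc the last. Lengths are those of all annotated exons of a gene merged, which understates the levels of genes with many alternative exons.

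Other genes of the myeloid lineage were taken from a list of 34, of which 28 were in the table and 19 passed the filter. From E9.0 to E10.5, 14 rose and 1 fell in wildtype PA1, 9 rose in wildtype PA2, 9 in PA1 labelled Hoxa2-/- and 5 in PA2 labelled Hoxa2-/-, with median log2 differences of 0.77, 0.31, 0.62 and 0.35 against 0.00, -0.01, -0.02 and 0.01 over all genes. In the same order, 21%, 17.5%, 14.8% and 15.8% of the 18428 genes tested were called higher by limma. Called lower were 3966, 3573, 3033 and 2786 of them. Coro1a, a leukocyte actin regulator, rose in all 4, by log2 2.74, 2.48, 2.42 and 2.02 in the order wildtype PA1, wildtype PA2 and then PA1 and PA2 under the label. F13a1, a transglutaminase subunit of macrophages and megakaryocytes, rose in all 4 by 2.36, 2.24, 2.34 and 1.77. Tmem119, a microglial gene that bone-forming mesenchyme also expresses, rose in all 4 by 1.34, 1.81, 1.26 and 1.55. Adgre1, which encodes the macrophage antigen F4/80, had values of 1.11, 1.10, 0.77 and 0.35 and was called in all but PA2 under the label, as was the protease gene Ctss, with 1.30, 0.85, 0.92 and 0.44. Lyz2 did not share this course: its values were 1.30, -0.08, 2.01 and 1.25, and it was called in PA1 under the label only.

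Of 12 tested transcription factors of myeloid cells, 4, 5, 2 and 3 rose and 1, 3, 2 and 2 fell in the same order, with median log2 differences of 0.09, 0.10, 0.14 and 0.03. Over all 18428 genes, 21%, 17.5%, 14.8% and 15.8% were called higher, and 3966, 3573, 3033 and 2786 genes lower. Several counts of this paragraph lie near these shares and show no trait of their list. Spi1, which encodes PU.1, rose in all 4 by log2 0.71, 0.76, 0.83 and 0.61, and so did Irf8 by 1.22, 1.46, 0.91 and 1.50, a factor of microglia and monocytes. Id3 fell in all 4, by the values -0.75, -0.95, -0.40 and -0.96, and Runx1, needed for blood cells to emerge from endothelium, had values of 1.27, 2.30, 0.59 and 1.56 and was called in all but PA1 under the label. Irf5 had values of 0.15, -0.88, 0.43 and -1.74 and was called lower in PA2 under the label only. Ikzf1 had values of 0.04, -1.08, 0.63 and 0.07 and was called lower in wildtype PA2 only. Neither ligand tested was called higher. Csf1 had log2 differences of -0.54, -1.0, 0.01 and -0.65 and was called lower in wildtype PA2 only, at a limma adjusted p of 0.0088. Cx3cl1, the ligand of CX3CR1, had values of -0.82, -0.75, -0.67 and -0.29 and was called lower in all but PA2 under the label. Il34 was not analysed here. Of 10 tested genes downstream of the adaptors 4, 3, 4 and 3 rose and 3, 3, 2 and 4 fell: Rac2 and Vav1 rose in all 4 groups, while Lyn and Plcg2 fell in all 4. Of the other complement genes, 7 were tested and C3ar1, the receptor for a fragment of C3, was the one called higher in all 4, by log2 1.36, 0.79, 0.81 and 0.58.

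Genes of other cells of blood and vessels did not follow one course. The counts here stand beside 21%, 17.5%, 14.8% and 15.8% of the 18428 genes tested that were called higher over the same span. Called lower were 3966, 3573, 3033 and 2786 of them. Of 8 megakaryocyte genes, 4, 2, 5 and 4 rose from E9.0 to E10.5, with the platelet chemokine genes Pf4 and Ppbp among them in all 4, by log2 1.86, 1.94, 2.84 and 2.04 for Pf4. Their 8 genes summed to a median of 6.83 CPM at E9.0 and 25.3 CPM at E10.5 in wildtype PA1. The 13 red cell genes had 1 higher and 1 lower in wildtype PA1, 0 and 5 in wildtype PA2, 6 and 0 in PA1 under the label and 0 and 0 in PA2 under the label. The wildtype PA2 libraries of E9.0 include the one rich in red cell transcripts, and its part in the 5 calls was not tested. The median sum of these genes went from 5248 CPM at E9.0 to 8203 CPM at E10.5 in wildtype PA2. Of 12 tested endothelial genes, 10, 9, 10 and 8 fell, and their sum went from 423 to 498 CPM at E9.0 to 209 to 246 CPM at E10.5 in wildtype PA1. Of 14 genes of neutrophils, mast cells and lymphocytes 2 were in the table, and they summed to at most 1.23 CPM in any library. The part of any of these cells in the members' values was not tested.

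**Figure D4:**
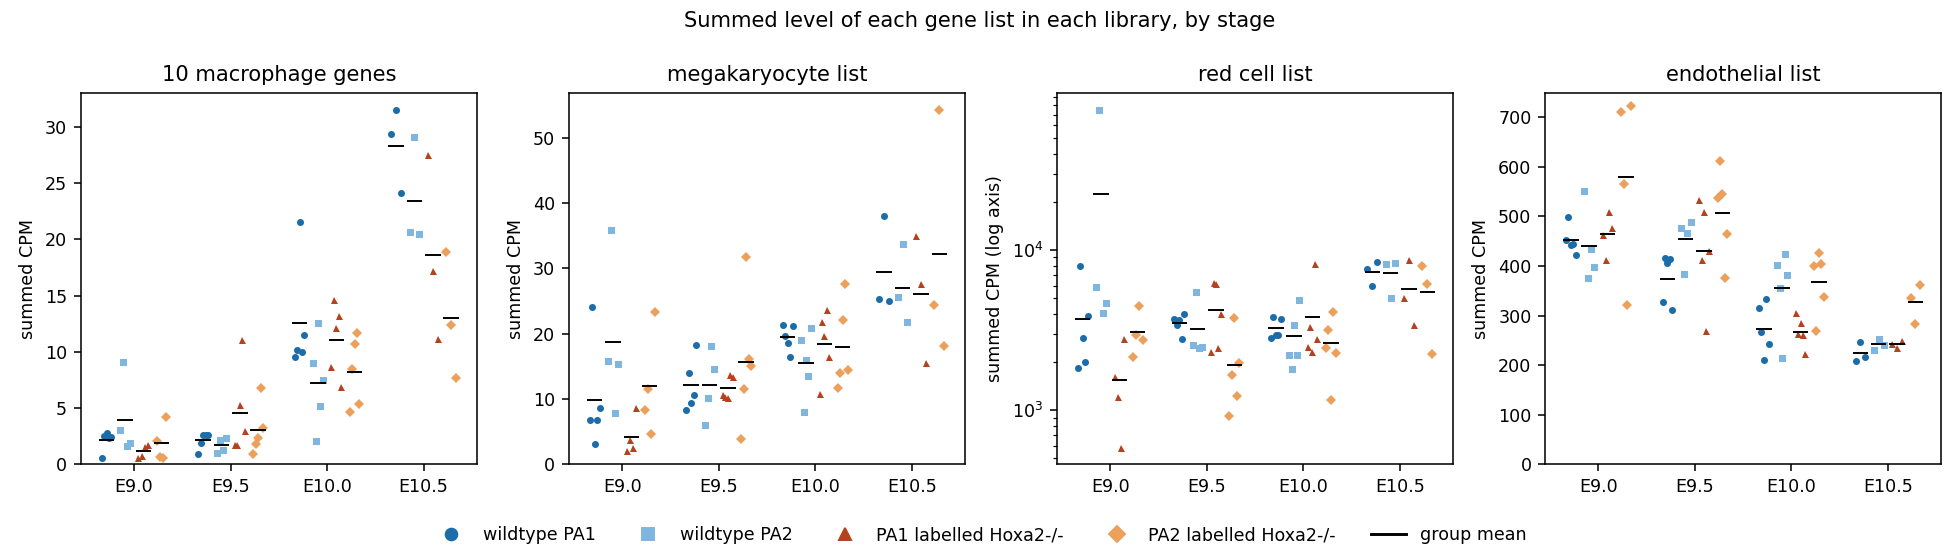
Summed CPM (y axis, logarithmic for red cells) of the 10 members and of the megakaryocyte, red cell and endothelial lists in each library, by stage, arch and label, with bars at the group means. The members' sums reach 31.5 CPM in wildtype PA1 at E10.5, the endothelial sums are lower at E10.5 than at E9.0 in both wildtype arches, and 1 library of wildtype PA2 at E9.0 stands apart at 75114 CPM of red cell genes.

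The members resembled one another across the 68 libraries, which share stages and arches. Pearson's r with the mean log2 level of the 9 that passed the filter, a mean that holds each gene itself, was 0.96 for C1qb, 0.94 for Csf1r, Tyrobp and C1qc, 0.93 for Cx3cr1, 0.89 for Fcer1g, 0.87 for Ptprc and 0.85 for C1qa, and 0.54 for Mrc1. After the group means were taken out, r was 0.84 for Tyrobp and C1qb, 0.75 for Cx3cr1 and C1qc, 0.74 for Csf1r, 0.70 for Fcer1g, 0.64 for C1qa, 0.63 for Ptprc and 0.41 for Mrc1. Among 14087 other genes, the 10 most like that mean over the 68 libraries were Cxcl14, Ppbp, Coro1a, F13a1, Ly86, Rac2, Lrrc17, Slitrk6, Mxd3 and Jakmip2, with r from 0.93 to 0.89. Of these, 5 remained among the 10 most alike once the group means were taken out: Ppbp, Coro1a, F13a1, Ly86 and Rac2. Ly86, which encodes the antigen MD-1 of myeloid and B cells and was singled out here after its values were seen, had an r of 0.92 and went from 0.0712 CPM at E9.0 to 1.54 CPM at E10.5 in wildtype PA1.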

How the data were processed

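The authors deposited 1 table for the 68 libraries, whose values are a signal in CPM, reads scaled by a factor for each library, with columns that sum to 926298 to 1051959. As these sums are unequal, the factor was not the column sum alone. Per the submitters' processing notes, bcl2fastq 2.18, TopHat2 2.1.1, R 3.3.2 and mm10 were used; the counting program, its annotation and strand setting are not given in the sources used here. All values (100%, within 0.01 read) were whole multiples of 1 read, so reads were recovered. CPM had been foreseen and the unit was recorded as signal because of the column sums. Reads carry no molecular identifiers known here, so floors of 3 reads cover counting error only.

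Genes with at least 1 CPM in 3 libraries (18428) were fitted with limma 3.58.1 (R 4.3.3) on log2(CPM + 1), with a mean per group, an intensity trend and Benjamini-Hochberg adjustment over all of them, at 0.05. edgeR 4.0.16 and DESeq2 1.42.0 on the recovered reads were alternatives; edgeR called 4013 genes higher and 4076 lower in PA1 of wildtype at E10.5 than at E9.0, against 3870 and 3966 with limma. The fit was tested on simulated data in which only genes with a mean above 5 CPM were changed, so it does not bear on calls at the members' levels. Other alternatives were pseudocounts of 0.25 and 5, other filters, median-of-ratios scaling, the compared groups alone, blocks and leaving out each library. Replicate numbers name embryos: deviations of both arches of an embryo correlated above 0.1 in 30 of 33 pairs (median 0.35, against -0.12 between embryos). The labels do not say that embryos of a group came from separate litters. Named genes were all members, the receptor ligands, up to 6 genes of each list with the largest changes, and the 10 genes most like the members' mean. Members and lists were chosen with earlier results of these data known. Gene models are GENCODE M21 on GRCm38.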

Additional observations from a re-analysis of the deposited data

Results flagged for a closer look

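In 9 of the 87 pairs of a member and a group of 4 or 5 libraries, 1 library stood far above the others. The threshold would mark about 1 in 20 groups of independent, normally spread values, which values of a few reads from the same libraries are not, so the count is no measure of an excess over chance. Of these, 5 belonged to embryo 4 labelled Hoxa2-/- at E9.5. In its PA1, Cx3cr1 read 2.02 CPM against 0.204 in the next library, Ptprc 1.37 against 0.543 and C1qc 0.587 against 0.0679. In its PA2, Cx3cr1 read 0.647 CPM against 0.139 and C1qb 1.15 against 0. The endothelial and heart sums of that embryo were the lowest of its group in both arches, 268 and 7.31 CPM in PA1 and 375 and 11.6 CPM in PA2, and their part in these values was not tested.

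Fcer1g read 2.14 CPM in replicate 2 of wildtype PA2 at E9.0, the library rich in red cell transcripts, against 0.379 in the next. C1qb read 3.44 CPM in replicate 3 of wildtype PA1 at E10.0 against 1.36. C1qc read 0.273 CPM in replicate 3 of wildtype PA1 at E9.5 against 0.0570, and Aif1 read 0.441 CPM in replicate 4 of PA2 labelled Hoxa2-/- at E10.0 against 0.136.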

How the results depend on the processing

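No member call of the main fit changed direction under any alternative run, and neither did the 2 Mrc1 differences from E9.0 to E10.5 under the label. Signs of other values were not compared. Calls were lost in 57 checks with 1 library left out and in 36 under other alternatives, while most checks changed no call. Leaving out 1 library at a time gave 9 to 9, 7 to 9, 6 to 8 and 6 to 8 members called from E9.0 to E10.5 (wildtype PA1 and PA2, then PA1 and PA2 labelled Hoxa2-/-), 21 to 26 step calls (24 with all), 0 to 2 arch calls (2 with all), 0 to 2 genotype calls outside E10.0 (1 with all) and 0 to 0 for genotype at E10.0 and both kinds of difference between arches. A filter of 5 CPM left 1 member, Csf1r, and gave 1, 1, 1 and 1 stage calls, 5 step calls, 1 arch call and 0 genotype calls. Arch calls numbered 1 with a pseudocount of 0.25, 1 with the compared groups alone, 0 with edgeR, 1 with DESeq2 and 1 without the 7 libraries rich in yolk sac genes. Genotype calls outside E10.0 numbered 2 with a pseudocount of 0.25, 3 with one of 5, 2 with no filter, 4 with the compared groups alone, 5 with edgeR, 7 with DESeq2 and 2 without embryo 4 labelled Hoxa2-/- at E9.5. DESeq2 gave 1 difference between arches in the change over stages. The cause was not tested where the number of genes or libraries stayed the same. The last 2 omissions were chosen after seeing the data. With the replicate number as a block, no call over stages or between labels was lost and 1 was gained, Cx3cr1 in PA1 labelled Hoxa2-/- from E9.5 to E10.0, at a limma adjusted p of 0.0494 (0.0659 without the block); with the embryo as a block, 3 arch calls were made, Cx3cr1 being added. Median-of-ratios scaling moved the median of all genes by at most 0.022 in size. At 0.140 to 0.328 CPM for 3 reads, depth limits what Aif1 and C1qa can show.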

Other observations

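Genes of blood progenitors and of tissues beside the arches took several courses from E9.0 to E10.5. Orders here are wildtype PA1, wildtype PA2, then PA1 and PA2 labelled Hoxa2-/-. Of the 18428 genes tested, 21%, 17.5%, 14.8% and 15.8% were called higher by limma, and 3966, 3573, 3033 and 2786 genes lower. Some of the counts below lie near these shares and show no trait of their list. Of 11 tested progenitor genes 3, 3, 3 and 2 rose and 3, 7, 2 and 2 fell by limma, with median log2 differences of -0.43, -0.87, -0.02 and -0.14. Mpo, the myeloperoxidase gene of granulocyte precursors, and Myb, a factor of definitive progenitors, rose in all 4, while Hlf fell in all 4. Of 7 heart muscle genes 1, 6, 1 and 6 fell, and of 8 genes of neural crest mesenchyme 3, 5, 2 and 6 rose and 3, 1, 1 and 0 fell. Of 10 yolk sac endoderm genes 0, 1, 1 and 0 rose and 2, 0, 0 and 3 fell. Their part in the macrophage genes' values was not tested.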
